A study of Mus musculus with 4 samples.

Results

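The MiT/TFE family is a group of transcription factors whose basic helix-loop-helix and leucine zipper regions bind DNA as dimers. Its members in the mouse are *Mitf*, *Tfe3*, *Tfeb* and *Tfec*. They were taken by gene symbol from the table of bulk RNA sequencing, which gave 4 of 23920 genes and 13 of 33170 transcripts. All 4 genes reached the minimum of 1 FPKM in at least 1 library and so belong to the 10763 genes compared. FPKM is a fragment count corrected for the length of the transcript and the depth of the library.

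The study asked how IL-3 and the transcription factor STAT5 act on osteoclast formation under RANKL. Bone marrow-derived macrophage-like cells (BMMs) of the C57BL/6 strain were sequenced after 24 h in 4 conditions, with 1 library for each. The controls were Stat5fl/fl cells, whose floxed *Stat5a* and *Stat5b* are intact. All of them had M-CSF at 30 ng/mL. One control library had this alone, another also had RANKL at 100 ng/mL, and the last had RANKL together with IL-3 at 1 ng/mL. The fourth library came from Stat5 cKO cells (STAT5;MX1-Cre), which lack both genes, and had all of these cytokines. The Mx1 promoter that drives Cre responds to interferon and is not restricted to the osteoclast lineage, and by the methods the littermate controls also received the inducer poly I:C. There was no cKO library with M-CSF alone or with RANKL alone. The labels give mice of 8 weeks, and the methods give 6 weeks for osteoclast cultures.

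M-CSF keeps macrophage precursors alive, and RANKL turns them into bone-resorbing osteoclasts. MITF and TFE3 act there with the myeloid factor PU.1 and with NFATc1, the master factor of osteoclasts, on genes of resorption such as *Acp5* and *Ctsk*. TFEB and TFE3 are best known for driving lysosomal and autophagy genes through the E-box motif CACGTG. They are held in the cytoplasm by mTORC1 at the lysosome, so that a transcript level is not a measure of their activity. TFEC is found mainly in macrophages and osteoclasts. *Mitf* is also the defining factor of melanocytes, where a start of its own gives a shorter form.

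The 4 proteins were compared through the coding parts of their most abundant transcripts in GENCODE M21. *Mitf* coded for 526 residues, *Tfeb* for 475, *Tfe3* for 467 and *Tfec* for 317. TFEC was thus the shortest. MITF and TFE3 were the most alike, at 62.1% of 425 aligned residues, and TFEB and TFEC the least, at 48.4% of 316. In the best ungapped stretch of 80 residues, MITF shared 90% with TFE3 and 90% with TFEC, and 77.5% with TFEB.

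Promoter windows are printed for 3 starts: the distal and the internal start of *Mitf* and the single start of *Tfec*. The use of these promoters was not measured. The 250 bases before each start are shown 5′ to 3′ on the gene's strand, from RefSeq on GRCm38.p6. The distal *Mitf* window is chr6:97806808-97807057 on the plus strand, the internal *Mitf* window chr6:97929567-97929816 on the plus strand, and the *Tfec* window chr6:16898442-16898691 on the minus strand. Capitals mark AGGAAG or its complement, one form of the site bound by PU.1. Other forms of the sites of PU.1 and related ETS factors were not searched, so a window without capitals may hold them.
*Mitf* distal start: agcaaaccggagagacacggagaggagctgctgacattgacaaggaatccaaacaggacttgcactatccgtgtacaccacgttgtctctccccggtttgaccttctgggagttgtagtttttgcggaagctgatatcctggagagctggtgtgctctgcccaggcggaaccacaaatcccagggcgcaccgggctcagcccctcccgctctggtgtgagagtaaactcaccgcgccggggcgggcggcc
*Mitf* internal start: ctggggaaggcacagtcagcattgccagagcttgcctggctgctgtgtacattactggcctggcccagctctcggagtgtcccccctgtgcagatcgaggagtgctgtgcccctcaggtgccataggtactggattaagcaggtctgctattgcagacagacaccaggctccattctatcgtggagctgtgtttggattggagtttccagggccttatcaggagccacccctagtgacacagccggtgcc
*Tfec* start: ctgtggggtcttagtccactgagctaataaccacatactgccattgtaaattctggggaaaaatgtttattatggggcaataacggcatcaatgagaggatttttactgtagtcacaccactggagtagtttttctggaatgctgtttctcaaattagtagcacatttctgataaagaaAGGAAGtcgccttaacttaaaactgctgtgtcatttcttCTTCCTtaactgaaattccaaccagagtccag

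Across all 9 RefSeq promoter windows of the 4 genes, both strands were searched for 5 motifs. The E-box CACGTG and its variant CATGTG, read by MiT/TFE factors, were in none of the 9. The STAT motif TTCNNNGAA and the AP-1 motif TGANTCA were also in none. AGGAAG occurred at 2 places in the *Tfec* window and at 1 in each of the *Tfe3* windows, and at none in the windows of *Mitf* and *Tfeb*. Of all 32851 promoters, CACGTG was in 6.02%, CATGTG in 12.3%, TTCNNNGAA in 7.02%, TGANTCA in 6.75% and AGGAAG in 29.5%. The last 3 motifs were chosen after values had been seen. A match describes letters only, and these windows leave out all other regulatory sequence.

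In BMMs with M-CSF, *Tfe3* was the most abundant member, and under RANKL with IL-3 *Tfec* was. The summed level of *Mitf* was 9.89 FPKM in the M-CSF library and 32.6 after RANKL. It was 12.3 when IL-3 was added to RANKL, and 18.4 in the cKO cells, which had received both. In that order, *Tfec* was at 15.5, 19.1, 72.5 and 17.3 FPKM. *Mitf* was thus high in the RANKL library and *Tfec* in the library with IL-3 and intact *Stat5* genes. *Tfe3* stood at 43.8, 29.5, 41.8 and 32.6 FPKM. *Tfeb* stood at 11.3, 8.96, 12.4 and 7.90 FPKM. Both were lower in the RANKL and cKO libraries than in the other two.

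**Figure D1:**
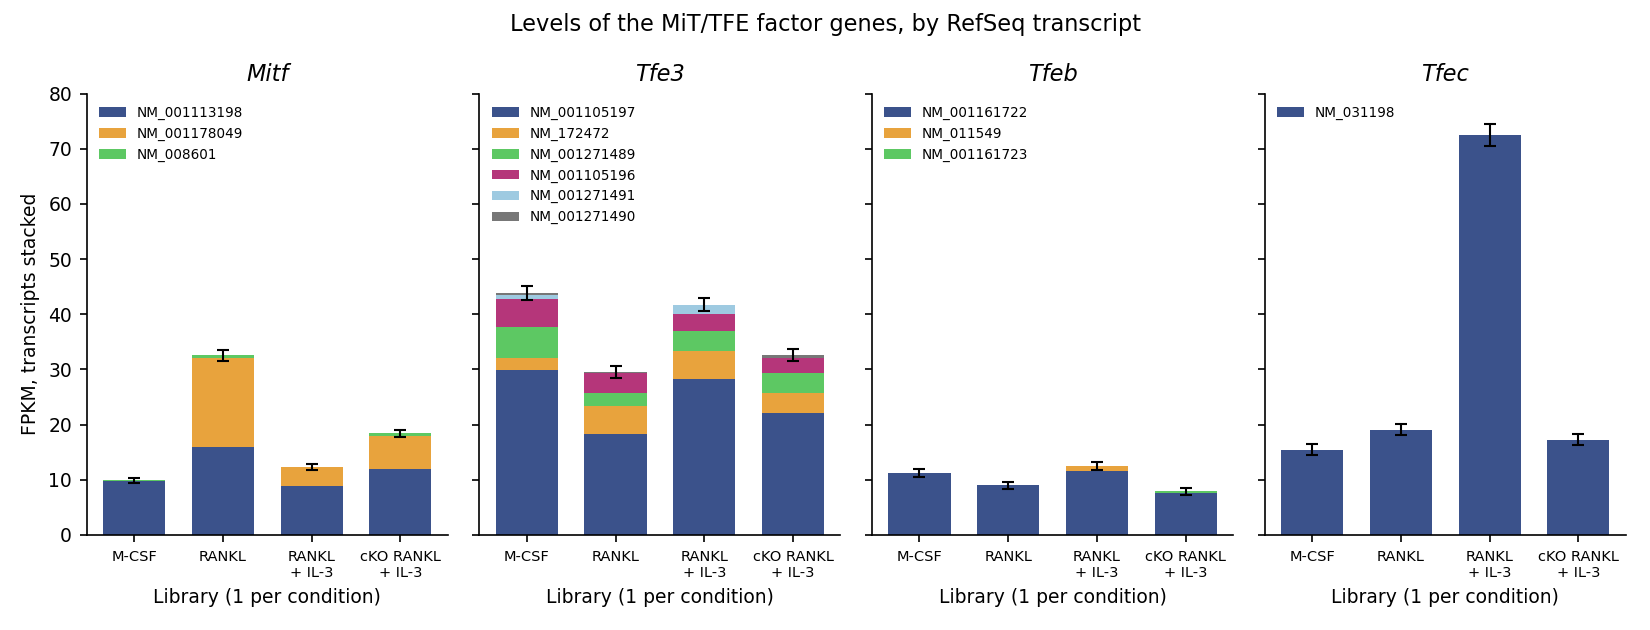
FPKM of the 4 MiT/TFE genes in each of the 4 libraries (1 per condition), with bars stacked by RefSeq transcript. Error bars are approximate 95% counting intervals of the gene sum and leave out variation between cultures and the division of shared reads between transcripts. The tallest bar is Tfec with RANKL and IL-3 (72.5 FPKM), followed by Tfe3 with M-CSF (43.8 FPKM) and Tfe3 with RANKL and IL-3 (41.8 FPKM). The tallest bar of Mitf is the RANKL library (32.6 FPKM).

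The approximate 95% counting intervals came from the depth estimated below and cover counting error only, since 1 library per condition gives no spread between cultures or mice. The division of shared reads between transcripts is also left out of these intervals. Between them the 4 genes held an estimated 675 fragments (*Tfeb*, cKO) to 4747 fragments (*Tfec*, IL-3). The libraries of *Mitf* did not overlap at these intervals, in the order RANKL, cKO, RANKL with IL-3, M-CSF. For *Tfec*, the library with IL-3 and intact *Stat5* stood apart, and neighbours among the other 3 overlapped. For *Tfe3*, the M-CSF library (43.8 ± 1.30 FPKM) and the IL-3 library (41.8 ± 1.20) overlapped. For *Tfeb*, the IL-3 and M-CSF libraries overlapped, as did the RANKL (8.96 ± 0.65) and cKO libraries (7.90 ± 0.60). Overlap does not mean that counting error covers a difference. For IL-3 against M-CSF, the interval of the log2 difference was 0.015 to 0.252 for *Tfeb* and -0.127 to -0.010 for *Tfe3*. For the cKO against RANKL it was -0.297 to -0.028 for *Tfeb* and -0.249 to -0.026 for *Tfec*. Each of these intervals excludes equal levels, but only for FPKM as deposited. With each library scaled to a common median, IL-3 against M-CSF was 0.149 for *Tfeb* and -0.053 for *Tfe3*. The cKO against RANKL was then -0.129 for *Tfeb* and -0.102 for *Tfec*. All but the first are smaller in size than their unscaled half-widths of 0.058, 0.135 and 0.111.

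The members took different shares of the family in each library. The 4 genes summed to 80.4 FPKM with M-CSF, 90.2 with RANKL and 76.2 in the cKO library, but to 139 with IL-3. *Tfe3* made 54.5% of the sum with M-CSF and 32.8% with RANKL. *Mitf* made 12.3% with M-CSF, 36.1% with RANKL, 8.87% with IL-3 and 24.1% in the cKO library. *Tfec* made 52.1% with IL-3, against 19.2% with M-CSF, 21.2% with RANKL and 22.7% in the cKO library. *Tfeb* was the smallest or next smallest share throughout, at 8.95% to 14.0%.

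RANKL was compared with M-CSF to follow the first day of osteoclast formation. *Mitf* was 3.29-fold higher with RANKL as a ratio of FPKM, and its difference on the log2(FPKM + 1) scale was 1.62 ± 0.08 (95% counting half-width). The gene value sums transcripts of unlike length. Before correction for depth, the estimated fragments of *Mitf* were 1592 with M-CSF and 3981 with RANKL. Its log2 difference ranked 197 from the highest of 10763 genes. Over all these genes, 5.44% were at least 2-fold higher on that scale and 6.88% at least 2-fold lower, and *Mitf* alone of the 4 members was past this limit. The log2 difference of *Tfe3* was -0.55 ± 0.06, of *Tfeb* -0.30 ± 0.13 and of *Tfec* 0.29 ± 0.12, while the median of all genes was 0.14. The members of the family thus did not share a direction.

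IL-3 was then added to RANKL, which asks how this cytokine changes the response to RANKL. *Mitf* was 2.64-fold lower than with RANKL alone, a log2 difference of -1.33 ± 0.07 that ranked 204 from the lowest. *Tfec* was 3.79-fold higher, a log2 difference of 1.87 ± 0.09 that ranked 205 from the highest. Both were past 2-fold, where 6.11% of all genes were higher and 3.47% lower. *Tfe3* differed by 0.49 ± 0.06 and *Tfeb* by 0.43 ± 0.12, against an all-gene median of -0.15. Set beside M-CSF alone, the IL-3 library held 4.69-fold more *Tfec* (log2 2.16 ± 0.10), rank 68 from the highest, whereas its *Mitf* differed from M-CSF by only 0.29 ± 0.09.

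The cKO library was compared with the control library under the same RANKL and IL-3, to see which levels depend on STAT5. *Tfec* was 4.196-fold lower in the cKO library, a log2 difference of -2.01 ± 0.09, and ranked 108 from the lowest. It was the only member past 2-fold, where 2.11% of all genes were higher and 4.28% lower. *Mitf* was 1.49-fold higher (log2 0.54 ± 0.08), *Tfe3* differed by -0.35 ± 0.06 and *Tfeb* by -0.59 ± 0.13, against an all-gene median of 0.13. *Tfec* in the cKO library was close to that of the control with RANKL alone, at a log2 difference of -0.14 ± 0.11. *Mitf* was not, at -0.79 ± 0.07, so that it stood 29.95% of the way from the IL-3 level back to the RANKL level. Neighbouring comparisons share a library: the control library with RANKL enters the first and the second, and the control library with IL-3 the second and the one with the cKO.

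**Figure D2:**
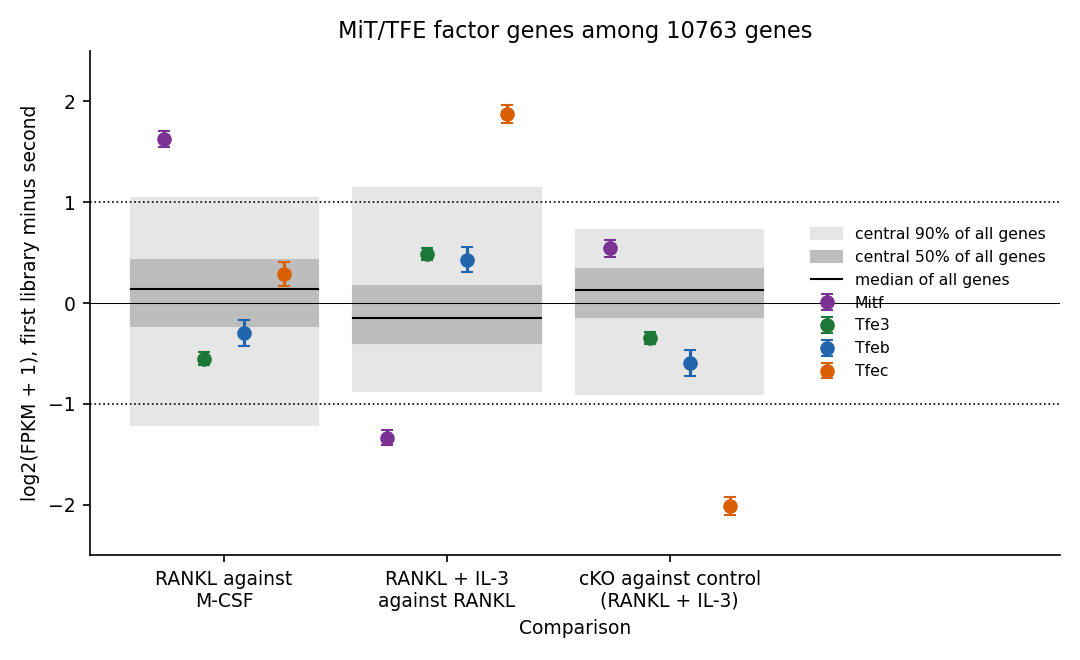
Differences in log2(FPKM + 1) of the 4 MiT/TFE genes in the 3 comparisons (points, with approximate 95% counting intervals), on the central 90% and 50% of 10763 genes (grey boxes) and their median (line). Dotted lines mark 2-fold. Mitf lies above the boxes with RANKL (1.62) and below them with IL-3 (-1.33), and Tfec above them with IL-3 (1.87) and below them in the cKO library (-2.01).

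The medians of all genes were away from 0, so the members were also read after scaling each library to a common median. No member changed its direction. *Mitf* was then at 1.47, -1.16 and 0.41 in the 3 comparisons, and *Tfec* at 0.13, 2.04 and -2.15. *Tfe3* was at -0.71, 0.66 and -0.49 and *Tfeb* at -0.45, 0.60 and -0.72. This scaling also moved the counts over all genes: with RANKL 435 genes were higher and 937 lower, against 585 and 740 without it. For IL-3 the split was 818 to 270, against 658 to 373.

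In summed FPKM, the higher level of *Mitf* under RANKL lay largely in the estimate for one of its transcripts. The gene lies on chromosome 6 of GRCm38, and the table held 3 of its RefSeq transcripts, whose starts are far apart. NM_001113198 begins at the distal start, chr6:97807058. NM_001178049 begins 122.7 kb downstream inside the gene (by GENCODE, a few bases before the RefSeq start of the window printed above), and NM_008601, the melanocyte form, 184.7 kb downstream. The distal and internal forms share their last 491 residues and differ in 35 against 19 residues at the N-terminus. The melanocyte form has 419 residues, of which 11 at the N-terminus are its own.

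The distal form was at 9.78, 15.9, 8.93 and 11.9 FPKM in the 4 libraries, in the order used above. The internal form was listed at 0.0012, 16.2, 3.39 and 6.07 FPKM. It was thus near 0 with M-CSF and as abundant as the distal form with RANKL. In the M-CSF library, 3 fragments on the 135 bases that only this form has would be 0.67 FPKM. Against that limit, the RANKL estimate was 24.2-fold higher, a value that takes the division of reads in the RANKL library as given. With IL-3 the internal form was 4.78-fold lower than with RANKL, and in the cKO library 1.79-fold higher than with IL-3. The melanocyte form was at 0.11, 0.47, 0.0034 and 0.44 FPKM and never reached 1.

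As a share of the gene, the internal form made 0.012% with M-CSF, 49.8% with RANKL, 27.5% with IL-3 and 33.01% in the cKO library. The cKO library had returned 42.4% of the way from the IL-3 level to the RANKL level for the distal form and 20.9% for the internal one. The distal form alone was 1.62-fold higher with RANKL than with M-CSF, which is under 2-fold. In estimated fragments, before correction for length and depth, it was at 1585 with M-CSF and 2727 with RANKL. The internal form was at 0.09 and 1222, so both forms differed by similar numbers of fragments. These splits are uncertain: the software divides reads that overlapping transcripts share. Of the 2872 bases particular to the distal form, 2642 lie in its longer last exon, while the 135 of the internal form are all in its first exon. Whether the starts or the last exons differed in use was not tested.

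**Figure D3:**
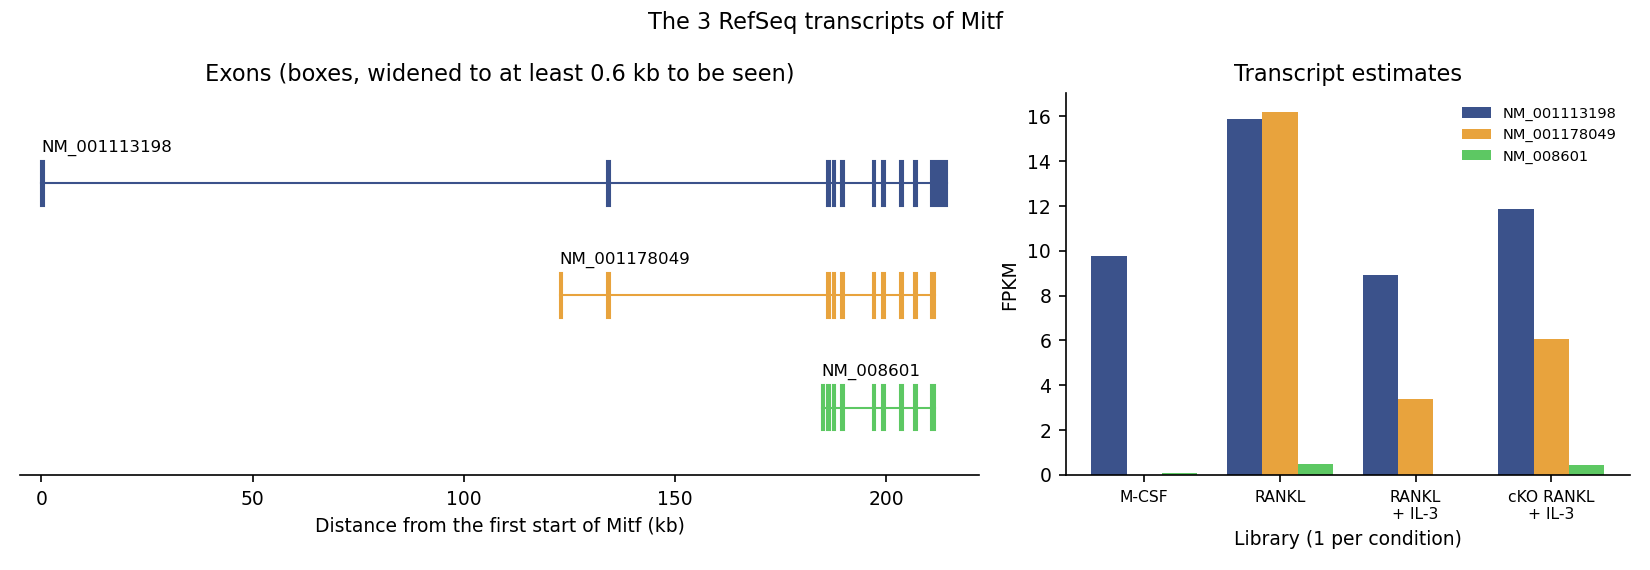
Left, exons (boxes) of the 3 RefSeq transcripts of Mitf by distance in kb from the first start, with boxes widened to at least 0.6 kb. Right, FPKM of each transcript in the 4 libraries (1 per condition, no error bars since reads are shared between transcripts). The internal form is near 0 with M-CSF and at 16.2 FPKM with RANKL, beside 15.9 for the distal form.

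*Tfec* had 1 transcript in the table, NM_031198, at chr6:16833373-16898441 on the minus strand, so that no split between transcripts enters its values. Its 7 exons hold 1787 nt. *Tfec* has been linked to the receptor gene *Csf3r* in macrophages. *Csf3r*, named after its values were seen, was at 3.92, 1.64, 2.39 and 1.62 FPKM in the 4 libraries and did not share the high level of *Tfec* with IL-3.

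*Tfe3* lies on the X chromosome, at chrX:7762658-7775202, and had 6 transcripts in the table. NM_001105197, which starts 1.3 kb after the first start, made the largest share in every library, at 29.9, 18.4, 28.2 and 22.1 FPKM. The 4 transcripts of the first start together made 30.1%, 37.8%, 28.6% and 32.3% of the gene. They coded for 467 to 572 residues. The estimated balance of the starts of *Tfe3* thus differed much less between libraries than that of *Mitf*. Its transcripts overlap so far that 2 of them have no base of their own.

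*Tfeb* lies at chr17:47737030-47792419 on the plus strand and had 3. NM_001161722 was at 11.2, 8.96, 11.6 and 7.53 FPKM and made 93.4% or more of the gene in every library. NM_011549, which starts 48.7 kb downstream and codes for 534 residues, was at 0.83 FPKM with IL-3 and near 0 elsewhere. NM_001161723 was at 0.37 FPKM in the cKO library and at or near 0 in the others. Neither of these reached 1 FPKM in any library.

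The genes closest to each member in their 3 log2 differences, among those with at least 5 FPKM in a library, were found over 4 libraries only. Closest to *Mitf* were *Zfand5*, *Baiap2* and *Lpcat1*, none of whose differences was more than 0.14 from its own. *Zfand5* was at 11.2, 34.4, 12.5 and 20.1 FPKM. Closest to *Tfec* were *Vsig8*, the chemokine gene *Ccl9* and *Fam198b*, within 0.26. *Ccl9* was at 163, 175, 547 and 147 FPKM. The nearest genes of *Tfe3*, which were *Itpripl1*, *Ostf1* and *Rnf185*, lay within 0.031, and those of *Tfeb*, which were *Arid3a*, *Nlrx1* and *Dguok*, within 0.048. With *Tfec* itself counted, 171 genes (1.59%) were at least 2-fold higher with IL-3, 2-fold lower in the cKO library and within 2-fold with RANKL. The course of *Mitf*, up by 2-fold with RANKL, down by 2-fold with IL-3 and inside 2-fold for the cKO, was that of 139 genes (1.29%).

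**Figure D4:**
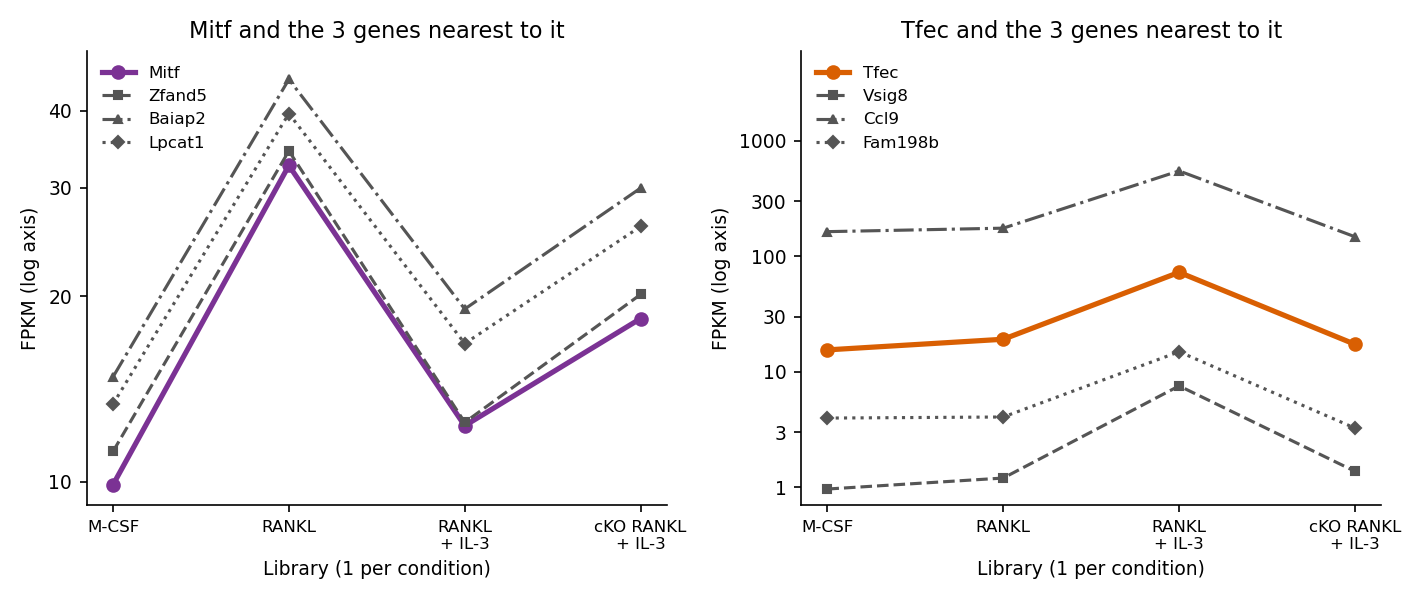
FPKM (log axis) in the 4 libraries (1 per condition) of Mitf (left) and Tfec (right), each with the 3 genes nearest to it in the 3 log2 differences. Mitf and its neighbours peak with RANKL, and Tfec and its neighbours with RANKL and IL-3, as Ccl9 does at 547 FPKM.

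Depth was estimated at 33.2 to 36.6 M fragments per library from the steps of low values. *Stat5a* was at 9.89 to 11.96 FPKM in the 3 control libraries and at 0.17 in the cKO library, and *Stat5b* at 7.80 to 10.8 and at 0.19, so the genotypes followed the labels. The labels give male mice, but in all 4 libraries *Xist* was at 31.9 to 47.0 FPKM and *Ddx3y*, *Eif2s3y*, *Kdm5d* and *Uty* were listed at 0. These values go against the label, in the same way in each library. *Tfe3* is X-linked. In bulk samples, fewer cells of a type and less RNA per cell cannot be told apart.

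Markers of cell types also differed between the libraries. Of 8 macrophage markers, all above 1 FPKM, 6 were lower by 2-fold with RANKL, 4 were higher with IL-3 and 3 were lower in the cKO library, beside 6.88%, 6.11% and 4.28% of all genes. Their sum was 22100, 8397, 17627 and 12547 FPKM in the 4 libraries. All 6 osteoclast markers past the minimum were higher with RANKL, the same 6 were lower after IL-3, and the cKO library had 4 of them higher, beside 5.44%, 3.47% and 2.11% of all genes. The sum over all 8 listed was 30.9, 1119, 122 and 433 FPKM, while *Calcr*, a marker of late osteoclasts, was at 0 in all. The order of libraries for *Mitf* was that of the osteoclast sum, and the order for *Tfe3* that of the macrophage sum. *Tfec* and *Tfeb* had the order of neither. The macrophage sum was mostly *Lyz2*, at 19887, 7176, 15871 and 11241 FPKM. The other macrophage markers had the same order, except *Itgam*, highest with RANKL and IL-3, and *Cd68*, lowest in the cKO library. The part of cell make-up in the levels of the members was not tested.

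Markers of other cells that use MITF were low. Of 8 melanocyte markers, 5 were at 0 in all libraries and none went above 0.24 FPKM. Of 10 mast cell markers, 4 were at 0 and 2 reached 1 FPKM, and their sum was 1.60 to 3.67 FPKM. None of 3 lymphocyte markers and 1 of 6 osteoblast and stromal markers reached 1 FPKM. The 4 neutrophil markers found summed to 1066, 606, 916 and 633 FPKM, and their part in the results was not tested.

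Reported targets of MITF and TFE3 in osteoclasts were measured next, and 7 of 8 passed the minimum. RANKL had 3 of them higher and 1 lower, IL-3 had 1 higher and 3 lower, and the cKO library had 2 higher and none lower. Over all genes the shares higher and lower were 5.44% and 6.88% with RANKL, 6.11% and 3.47% with IL-3, and 2.11% and 4.28% for the cKO. The 3 higher with RANKL and the 3 lower with IL-3 were *Acp5*, *Ctsk* and *Atp6v0d2*. The 2 higher in the cKO library were *Acp5* and *Ctsk*. These genes and *Oscar* are also among the osteoclast markers above, so the same genes are counted in both lists. *Acp5*, which codes for the TRAP enzyme, was at 12.2, 432, 28.2 and 149 FPKM. *Ctsk*, the collagen-degrading cathepsin, was at 3.60, 338, 25.8 and 107 FPKM. Both were lowest with M-CSF and highest with RANKL, as *Mitf* was. *Atp6v0d2*, a proton pump subunit that acts in cell fusion, was at 2.38, 98.5, 27.5 and 34.1 FPKM, and so differed little between the cKO library and its control. The chloride transporter gene *Clcn7* stayed at 37.5 to 50.3 FPKM and its partner *Ostm1* at 17.98 to 26.9. The glycoprotein gene *Gpnmb* was at 660, 748, 873 and 437 FPKM, just within 2-fold in the cKO comparison (log2 -0.996). The survival gene *Bcl2* ran the other way from *Acp5*, at 3.85, 0.98, 3.38 and 1.34 FPKM. The receptor gene *Oscar* did not reach 1 FPKM, with a highest value of 0.70 with RANKL.

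The median log2 difference over these 7 genes was 0.41, -0.06 and -0.12, beside 0.14, -0.15 and 0.13 over all genes. The list thus held genes of both directions and its median says little of the large differences of *Acp5* and *Ctsk*. These counts are a description of targets that were chosen with earlier results known.

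Lysosomal genes of the CLEAR network, the set that TFEB and TFE3 are known to drive, were on the whole slightly lower with RANKL. All 33 passed the minimum. With RANKL none was higher and 6 were lower by 2-fold, where 5.44% and 6.88% of all genes were. Of the 33, 26 were below 0, with a median of -0.32 against 0.14 over all genes. With IL-3 2 were higher and none lower (6.11% and 3.47% of all genes), with a median of 0.24 against -0.15. In the cKO library none was higher and 1 lower (2.11% and 4.28% of all genes), with a median of -0.22 against 0.13. The single counts are thus near the background, apart from the 6 lower with RANKL.

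The largest differences were in highly expressed genes. *Ctsd*, the aspartic protease cathepsin D, was at 3904, 1237, 2915 and 1649 FPKM. *Psap*, the precursor of the saposins, was at 1831, 762, 2409 and 864 FPKM. *Ctsb*, the cysteine protease cathepsin B, was at 1850.04, 655, 1169 and 836 FPKM. All 3 were lowest with RANKL. *Hexa*, *Galns* and *Hgsnat*, which code for enzymes that break down glycolipids or glycosaminoglycans, made up the 6 lower with RANKL. The summed level of macrophage markers was lowest in the same library, and its part in these differences was not tested.

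E-boxes in front of such genes are shown because this is the motif that the family is known to bind. Each line gives a RefSeq promoter stretch of GRCm38.p6, 5′ to 3′ on the gene's strand, with CACGTG or, for *Acp5*, the complement of CATGTG in capitals. They lie at chr7:142387908-142387937 (*Ctsd*, minus), chr8:13159088-13159117 (*Lamp1*, plus), chr8:3500462-3500491 (*Mcoln1*, plus), chr17:25133364-25133390 (*Clcn7*, plus) and chr9:22130671-22130700 (*Acp5*, minus).
*Ctsd*: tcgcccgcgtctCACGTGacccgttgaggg
*Lamp1*: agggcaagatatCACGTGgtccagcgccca
*Mcoln1*: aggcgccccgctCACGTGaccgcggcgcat
*Clcn7*: tccgtcgtcagtCACGTGggcaccgat
*Acp5*: aagtccagtgctCACATGacccaaggggag

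CACGTG was in the 250 bases before a start of 13 of 25 CLEAR genes with a promoter in RefSeq (52%), against 10.2% of 8726 compared genes with one. The longer TCACGTGA, which contains CACGTG, was in 6 of 25 (24%) against 1.97%. CLEAR genes are known as a set driven through CACGTG. Their high share thus follows from how the list is defined and is not a result of these data. Among the 7 reported osteoclast targets with a promoter, CACGTG was in 1 and CATGTG in 3, against 8.92% of compared genes for the latter. *Clcn7* had both, from different starts, yet its level differed little between the libraries. *Lamp1*, a lysosomal membrane protein with 4 such E-boxes, was at 699, 461, 720 and 525 FPKM, and *Mcoln1*, the lysosomal calcium channel, at 18.8, 14.1, 17.7 and 15.2 FPKM. E-boxes are also read by MYC, USF and other factors.

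The vacuolar proton pump acidifies lysosomes and the resorption pit. The 17 subunit genes listed here leave out *Atp6v0d2*, which is counted among the reported targets above. That gene was at a log2 of 4.88, -1.80 and 0.30 in the 3 comparisons. Of the 17, 1 was lower with RANKL, 2 were higher with IL-3 and 1 was lower in the cKO library, with medians of 0.19, -0.09 and -0.09. The shares over all genes for these 3 counts were 6.88%, 6.11% and 4.28%, so that single genes rather than the list stood out. *Atp6v0a1*, which codes for one form of the membrane subunit a, was at 62.6, 7.83, 95.4 and 17.0 FPKM. It had the largest differences of the list by far, a log2 of -2.85, 3.45 and -2.42. *Tcirg1*, the form of the same subunit used by osteoclasts, was at 168, 275, 234 and 220 FPKM. *Atp6v0d1*, the widely used counterpart of *Atp6v0d2*, was at 107, 71.0, 147 and 81.0 FPKM. *Atp6v0a2*, one more form of subunit a, stayed at 13.2 to 14.4 FPKM. With RANKL the osteoclast forms *Tcirg1* and *Atp6v0d2* were thus higher and *Atp6v0a1* and *Atp6v0d1* lower, while *Atp6v0a2* differed by 0.09. Only *Atp6v0a1* and *Atp6v0d2* were past 2-fold in that comparison.

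Most autophagy genes stayed within 2-fold, as 84.2% of all genes did in the 3 comparisons together. Of 21, *Wipi1* alone passed 2-fold, and with RANKL only (6.88% of all genes were lower there), at 8.00, 1.86, 4.41 and 1.95 FPKM. The medians were -0.15, 0.11 and -0.11. *Atg7*, the enzyme that activates the autophagy conjugation system, was at 27.2, 16.4, 31.9 and 20.01 FPKM. *Gabarap*, a membrane tag of autophagosomes, was at 309, 208, 334 and 231 FPKM. Both were higher with M-CSF alone and in the control with IL-3 than in the other libraries, by less than 2-fold.

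Regulators of where MiT/TFE proteins lie in the cell also stayed mostly within 2-fold. Of 29 listed, 27 passed the minimum, and 1 was lower with RANKL, 2 were higher with IL-3 and none was past 2-fold in the cKO library. The first count stands beside 6.88% of all genes and the next beside 6.11%, so neither is a result about the list. The medians were -0.14, 0.13 and -0.14. *Prkcb*, a kinase reported to modify TFEB in osteoclasts, was at 22.8, 7.33, 17.9 and 10.02 FPKM. *Lamtor4*, part of the lysosomal anchor of mTORC1, was at 59.0, 30.8, 66.6 and 37.2 FPKM. *Rptor*, the mTORC1 scaffold, was at 19.995, 24.3, 12.5 and 21.0 FPKM and so was lowest with IL-3. *Mapk3*, the ERK1 kinase that can modify MITF, was at 122, 62.6, 96.5 and 76.5 FPKM. The location of the proteins was not measured here.

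Partners of MITF in osteoclasts included genes with large differences in both directions. Of 9 past the minimum, RANKL had 2 higher and 1 lower, IL-3 had 1 higher and 2 lower, and the cKO library had 2 higher, with medians of 0.33, -0.08 and 0.12. The shares over all genes, in that order, were 5.44%, 6.88%, 6.11%, 3.47% and 2.11%. *Nfatc1* was at 13.6, 157, 17.7 and 84.8 FPKM. *Fos*, a part of AP-1 that acts ahead of *Nfatc1*, was at 42.003, 262, 86.8 and 195 FPKM. Both had the order of libraries of *Mitf*, but in the cKO comparison their log2 differences were 2.197 ± 0.05 and 1.16 ± 0.04, against 0.54 ± 0.08 for *Mitf*. *Ets2* ran the other way with RANKL, at 76.2, 16.8, 70.9 and 40.9 FPKM. *Spi1*, which codes for PU.1, was at 268, 403, 337 and 382 FPKM and did not pass 2-fold.

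Other bHLH leucine zipper factors that can bind E-boxes were the closest outside comparison. Of 14 past the minimum, RANKL had 2 higher and 1 lower, IL-3 had 1 lower, and the cKO library had 1 higher, with medians of 0.12, -0.12 and 0.12. The shares over all genes for these counts were 5.44%, 6.88%, 3.47% and 2.11%, and a count of 1 is a single gene. *Myc* was at 38.4, 124, 66.1 and 114 FPKM. *Tfap4* was at 3.95, 12.97, 3.59 and 10.4 FPKM, high in the RANKL and cKO libraries. *Mxd3*, a repressor partner of MAX, was the one lower with RANKL, at 6.54, 2.08, 3.54 and 3.00 FPKM. None of the 14 was 2-fold higher with IL-3, as 6.11% of all genes were, so none had the course of *Tfec*. That course was found in 1.59% of all genes, so its absence among 14 is not a result about the list. The USF genes, which bind the same CACGTG, were flat, *Usf1* at 13.4 to 15.9 FPKM and *Usf2* at 41.6 to 45.6.

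**Figure D5:**
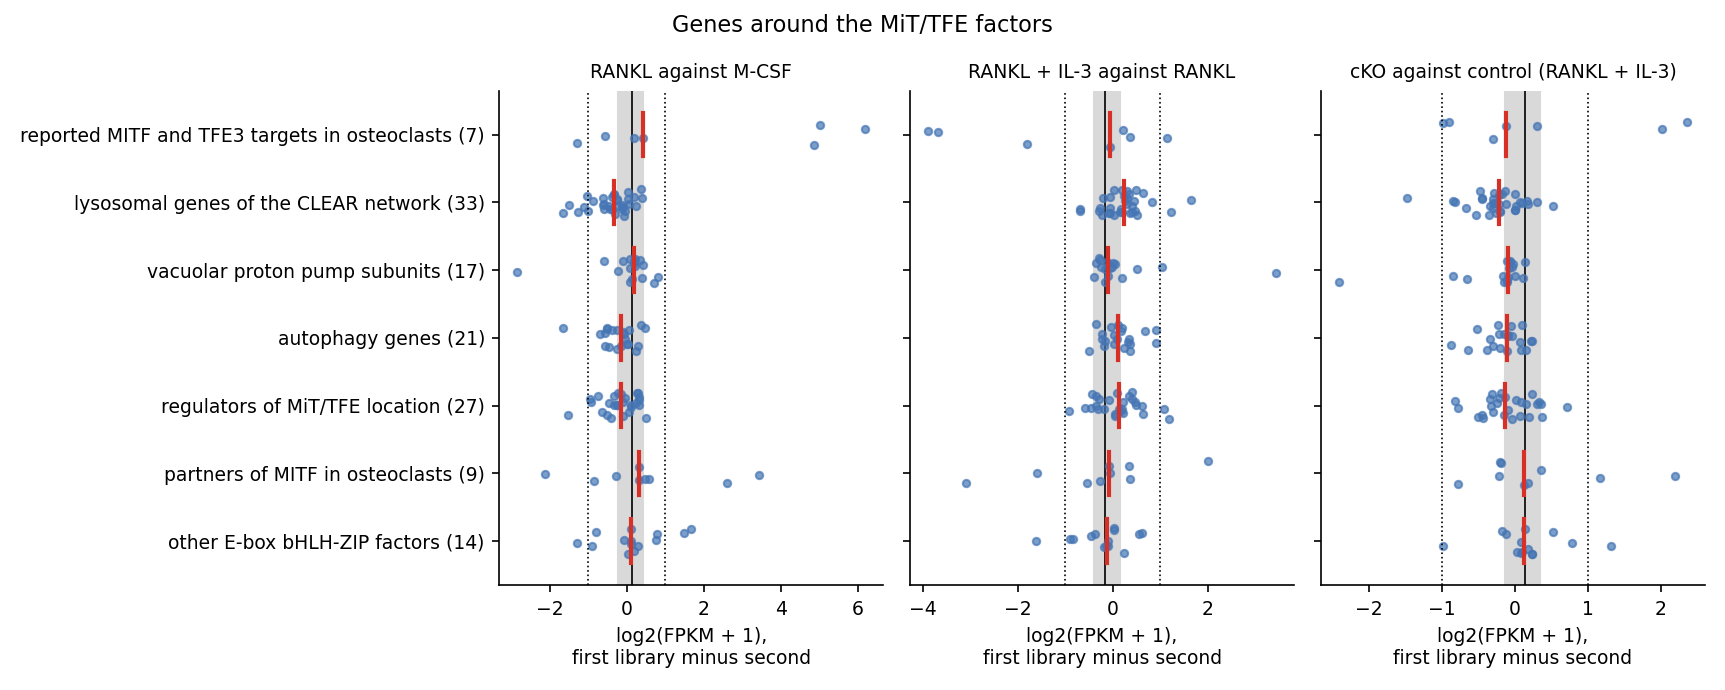
Differences in log2(FPKM + 1) of single genes (blue points) in 7 gene groups around the MiT/TFE factors, for the 3 comparisons. Red bars are group medians, the grey band and black line the central 50% and median of all 10763 genes, dotted lines 2-fold, and numbers in brackets the genes past the minimum. CLEAR medians lie at -0.32, 0.24 and -0.22, while single genes such as Acp5, Nfatc1 and Atp6v0a1 lie far outside the band.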

How the data were processed

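The authors prepared the libraries with a TruSeq RNA kit and sequenced them on a HiSeq2000. Reads were aligned to mm10 with TopHat2 2.0.13 and transcripts estimated with Cufflinks 2.2.1, per the paper's methods and the processing notes of the submitters. The sources used here give no options. The deposited values are FPKM per RefSeq transcript. The table does not name its unit, which was inferred from the software and the values. They also do not say how many mice each library came from.

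Transcripts were summed per gene ID. Small RNA genes were left out, as were genes that stayed under 1 FPKM in every library, which left 10763 genes. Differences are of log2(FPKM + 1), and 2-fold on that scale was counted. Folds in the text are ratios of FPKM. With 1 library per condition no test was made. Depth came from the steps of low values in genes with 1 transcript of 3000 nt or more, where 74.2% to 77.6% of 495 to 538 values lay within 0.2 steps of a whole fragment, against 40% by even spacing. The step was fitted to the same values. Counting intervals follow from this depth and GENCODE M21 lengths, which may differ from the authors' RefSeq release.

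The members and gene lists were chosen with earlier results of these data known. Of 186 list entries, 185 were found, and all 13 transcripts were matched to GENCODE M21, whose assembly GRCm38 is mm10. Named genes were the members with all transcripts, up to 4 genes per list and comparison with the largest differences, and the 3 genes per member with the smallest largest difference from it over the 3 comparisons. The text gives part of these. Genes with a special role, the sex-linked genes and *Csf3r* were added after their values were seen. Alternatives were a pseudocount of 0.1, 2 scalings, the most abundant transcript per gene, minimums of 5 FPKM or none, and limits of 1.5-fold and 4-fold. The ratio and depth steps were tested on simulated data. Python 3.11.15, numpy 2.4.6, pandas 2.3.3, Biopython 1.88 and matplotlib 3.10.9 were used.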

Additional observations from a re-analysis of the deposited data

How the results depend on the processing

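Each of the 12 member differences was recomputed under 4 alternatives. All 48 values kept their direction, 46 kept their side of 2-fold and 25 moved by less than the counting half-width. Part of this was fixed in advance. A change of pseudocount cannot reverse a direction, and *Tfec*, with 1 transcript, repeats its main values under the most abundant transcript. The values that changed their side of 2-fold were *Mitf* by its most abundant transcript, the distal form, at 0.65 with RANKL and -0.77 with IL-3. The same setting gave 0.38 for *Mitf* in the cKO comparison, and -0.67 with RANKL and 0.59 with IL-3 for *Tfe3*. Scaling to a common median gave, in the order RANKL, IL-3 and cKO, 1.47, -1.16 and 0.41 for *Mitf*, -0.71, 0.66 and -0.49 for *Tfe3*, -0.45, 0.60 and -0.72 for *Tfeb*, and 0.13, 2.04 and -2.15 for *Tfec*. Upper-quartile scaling gave -1.25 and 0.57 with IL-3 for *Mitf* and *Tfe3*, and 0.45, -0.44 and -2.10 in the cKO comparison for *Mitf*, *Tfe3* and *Tfec*. A pseudocount of 0.1 gave 1.71 for *Mitf* with RANKL, and counted 560 genes lower with IL-3 and 379 higher in the cKO library, against 373 and 227. At 1.5-fold, 1680 genes were higher and 1491 lower with RANKL, 1303 and 1371 with IL-3, and 907 and 957 in the cKO library. At 4-fold these were 124 and 162, 175 and 74, and 34 and 108. Of 336 list counts, 279 were within 1.5 times the main one. With no minimum the counts could not change: a gene under 1 FPKM throughout cannot reach 2-fold in log2(FPKM + 1). Counts of 0 in both settings are also among the 279.

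No paired analysis was possible because each condition has 1 library. Depth limits the members little, while variation between cultures and mice is not measured at all. Without a cKO library under M-CSF or RANKL alone, the difference the deletion makes without IL-3 was not measured. The split of *Mitf* between starts rests on reads that transcripts share.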
